A study of Mus musculus with 6 samples.

Results

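The nuclear genes of the mitochondrial ribosome were followed in mouse tumours grown under the skin, with or without treatment by an anti-PD-1 antibody, which blocks an inhibitory receptor on T cells. The members were the rows of the expression table whose gene symbol was Mrpl or Mrps followed by a digit, with pseudogene names left out. The rule found 77 of 22206 rows, 48 with an Mrpl name and 29 with an Mrps name. A gene symbol stood alone on 75 of them, while the other 2 were shared with a neighbouring gene (Ccdc142 with Mrpl53, and Slc5a3 with Mrps6) and cannot be divided between them. All 77 passed the authors' own call of an expressed gene in both groups, so no member was lost to a filter on dim signals.

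The tumours were grown from the mouse line KLN205, which derives from a squamous carcinoma of lung. In all groups 1000000 cells in 50 µL of RPMI-1640 and 100 µL of Matrigel were placed under the skin of the left flank. The treatment protocol gives 250 µg of either an IgG2a isotype control antibody or the anti-PD-1 antibody into the peritoneum once per 3 days, whereas the sample labels say of the controls only that no anti-PD-1 was given. The series text describes surviving cells, whereas the sample labels name tissue of tumours. Values were therefore taken to come from tumour pieces that include host cells. Neither strain nor age of the mice was stated in the labels. The control arrays carry the numbers 2, 3 and 4 and the anti-PD-1 arrays 1, 2 and 3, 1 Clariom S Mouse array each. The labels do not say that each tumour came from its own animal, so the p-values below reflect the spread among these samples alone, which may be technical.

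Each value was a log2 signal, so that a difference of 1 is a factor of 2 in brightness. Array medians lay between 7.04 and 7.13, and precision is limited by having 3 arrays in each group. Of all arrays, control replicate 3 was least like the rest: over all rows its Pearson correlation with them was 0.908 to 0.936, against 0.973 to 0.987 among the other 5. It had the lowest signals of squamous epithelium markers and the highest of adipocyte and milk genes, and a printed gene list median that moved by more than 1.5 times without it is given also without it, or as a range over the arrays left out. A whole piece of tissue was measured, so fewer cells of a type and less RNA per cell cannot be told apart.

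The mitochondrial ribosome translates the few messages of the mitochondrial genome, which encode core subunits of the respiratory chain and of ATP synthase. Its ribosomal RNAs are made inside the organelle, whereas all of its proteins are encoded in the nucleus, made in the cytosol and imported. Some of these proteins descend from proteins of the bacterial ribosome and others were added in mitochondria. The large subunit joins amino acids and holds the exit tunnel at the inner membrane, and the small subunit reads the message. The member genes lay on 17 chromosomes, with at most 10 on 1 of them, chromosome 11.

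Most mitoribosomal signals were somewhat higher in the anti-PD-1 tumours, and none passed the test. The mean was higher with anti-PD-1 in 72 of 77 rows (93.5%), against 51.6% of all 22203 rows tested. The median difference of the members was 0.36 on the log2 scale, a factor of 1.28, while the median of all rows was 0.02. The central portion of the members, from the 25th to the 75th percentile, ran from 0.18 to 0.57, and the whole range from -0.47 to 1.60. Of the 77 rows, 26 had a mean more than 0.5 higher and 22 lay within 0.2 of 0.

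The difference was tested row by row with limma, as a two-sided test whose p-values were adjusted by Benjamini-Hochberg over all rows, with a threshold of 0.05. No member passed the adjusted threshold in either direction, and the lowest adjusted p of a member was 0.50. A single row, 1 of 22203 or 0.00450%, passed among all those tested. At an unadjusted p under 0.05, 10 members (13.0%) were higher, beside 5.25% of all rows, and 0 were lower, beside 4.54% of all rows. All 3 anti-PD-1 arrays lay above all 3 control arrays in 14 members (18.2%), against 8.89% of all rows. The opposite order, with all anti-PD-1 arrays below all controls, occurred in 0 members and in 7.74% of all rows. The difference was smaller than the pooled standard deviation within groups in 40 members and larger in 37. The members were measured on the same 6 arrays and shift together with them, so these counts are not independent of each other.

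**Figure D1:**
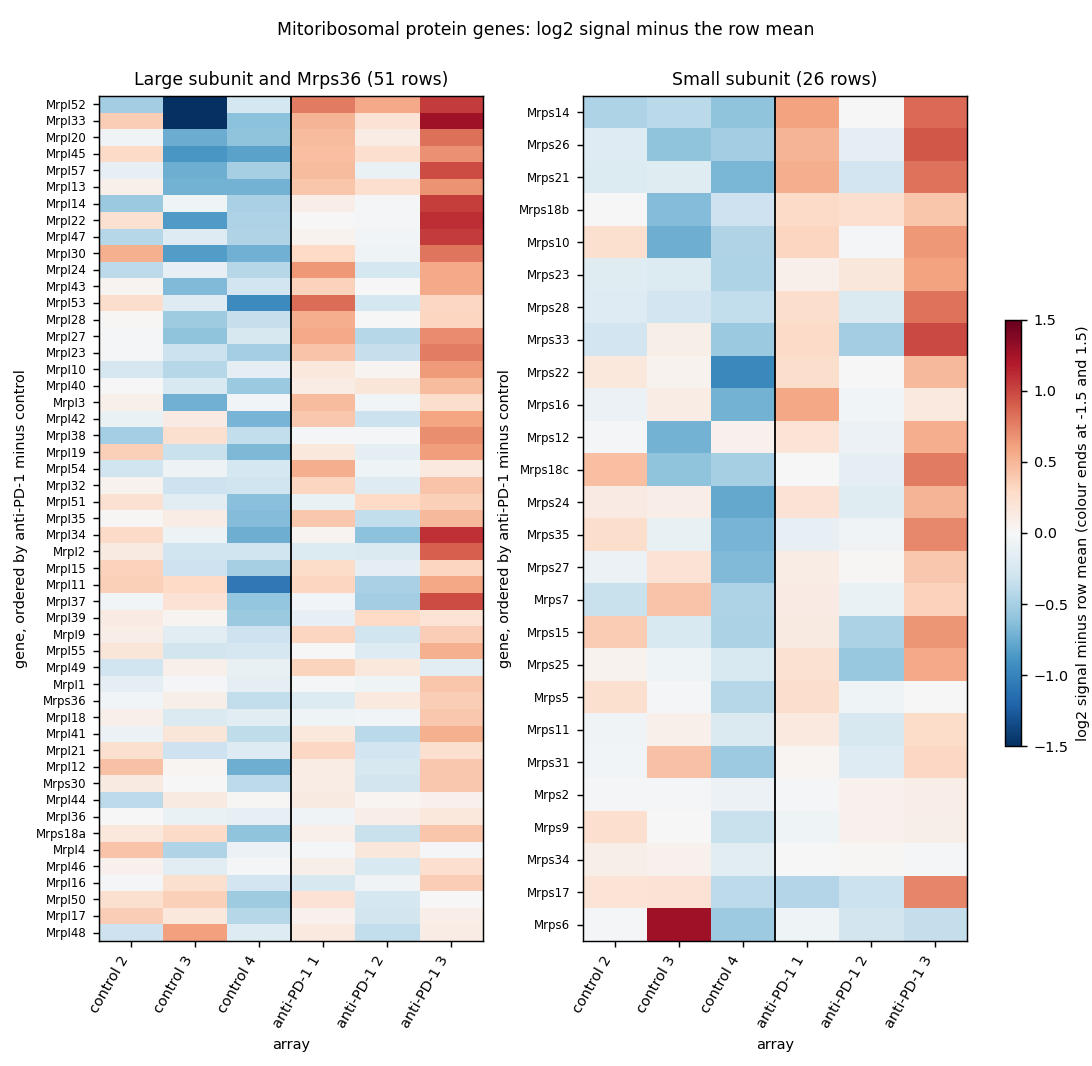
Log2 signal minus the row mean for the 77 mitoribosomal rows (vertical axis, ordered by difference within each panel) on the 6 arrays (horizontal axis), with red above and blue below the row mean; values past the ends of the colour bar take the end colour. The column of anti-PD-1 replicate 3 is the highest of the 6 arrays in 55 rows and that of control replicate 4 the lowest in 41.

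The groups overlapped in the level of their mitoribosomal signals. Each array's mitoribosomal score is the median over the members of the log2 signal minus the row mean. Control replicates 2, 3 and 4 scored 0.02, -0.13 and -0.46, and anti-PD-1 replicates 1, 2 and 3 scored 0.16, -0.09 and 0.49. The mean score was -0.19 ± 0.24 (SD, n = 3) in control and 0.18 ± 0.29 (SD, n = 3) in anti-PD-1 tumours, and the groups overlapped because anti-PD-1 replicate 2 lay below control replicate 2. Many single genes had the same arrays at the ends of their order. Anti-PD-1 replicate 3 was the highest of the 6 arrays in 55 members and the lowest in 0, although it was the highest in 18.3% of all rows. Control replicate 4 was the lowest in 41 members and the highest in 0, although it was the lowest in 15.2% of all rows. Control replicate 3 was the lowest in 24 members and in 28.2% of all rows. Most of the 10 members higher at an unadjusted p under 0.05 were among these 24. Anti-PD-1 replicate 2 lay below both other arrays of its group in 61 members. Over the 6 arrays, each member's Pearson correlation with the score had a median of 0.82 and was above 0.8 in 40 rows, as a description of points that share arrays and, for the score, the member itself.

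Leaving out 1 array moved the median difference of the members between 0.20 and 0.56. It was 0.20 when control replicate 4 was left out and also 0.20 when anti-PD-1 replicate 3 was. Omitting anti-PD-1 replicate 2 gave 0.56 and omitting anti-PD-1 replicate 1 gave 0.36. For control replicates 2 and 3 the medians were 0.49 and 0.39. A median of 0.21 remained when control replicate 3 and anti-PD-1 replicate 3 were both omitted. The number of members higher at an unadjusted p under 0.05 ran from 2 when anti-PD-1 replicate 3 was omitted to 17 when anti-PD-1 replicate 2 was. It was 5 on omitting anti-PD-1 replicate 1, and 14, 5 and 3 on omitting control replicates 2, 3 and 4. Whichever array was left out, 56 members kept their direction, all 56 of them higher with anti-PD-1, and 21 changed direction without at least 1 array.

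The subunits and the origins of the proteins gave nearly equal medians on all 6 arrays. In the large subunit 47 of 50 rows were higher, 6 at an unadjusted p under 0.05, with a median of 0.36. In the small subunit 24 of 26 rows were higher, 4 at that threshold, with a median of 0.36. Without control replicate 4 the medians were 0.21 in the large and 0.11 in the small subunit, and without anti-PD-1 replicate 3 they were 0.23 and 0.16. These counts put Mrps18a and Mrps30 in the large subunit, where their proteins sit despite the names, and leave out Mrps36, whose protein is now assigned to the 2-oxoglutarate dehydrogenase complex of the citric acid cycle. Proteins with a bacterial counterpart had 45 of 48 rows higher and a median of 0.36, and proteins found only in mitochondria had 26 of 28 rows higher and a median of 0.36. The spread within each class was far wider than the distance between classes, as differences in the large subunit ran from -0.07 to 1.60 and those in the small subunit from -0.47 to 0.98.

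Mrpl52 had the largest difference of any member. It encodes a large-subunit protein that bacteria lack, and its row covers chr14:54426909-54429750 of mm10. Its log2 signal was 7.70, 6.62 and 7.96 in control replicates 2, 3 and 4 and 9.01, 8.80 and 9.27 in anti-PD-1 replicates 1, 2 and 3. All anti-PD-1 arrays lay above all controls, and control replicate 3 was the lowest of the 6. The difference was 1.60 ± 0.38 (SE of the limma fit), a factor of 3.03, with an adjusted p of 0.50. It was 1.20 without control replicate 3 and up to 1.87 without control replicate 4.

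Among the other members of the large subunit at an unadjusted p under 0.05, Mrpl20 and Mrpl13 are counterparts of bacterial proteins. Mrpl20 (chr4:155802878-155809975) read 11.30, 10.61 and 10.75 in control and 11.83, 11.47 and 12.19 in anti-PD-1 arrays, in the order of the replicate numbers used throughout. The difference was 0.94 ± 0.29 (SE) and the groups did not overlap. Mrpl13 (chr15:55534094-55557748) read 11.06, 10.28 and 10.28 in control and 11.40, 11.24 and 11.66 in anti-PD-1 arrays. Its groups did not overlap either, with control replicate 2 closest to the treated arrays, and the difference was 0.89 ± 0.28 (SE). Mrpl33, a small protein near the tRNA exit site in bacterial ribosomes, read 12.28, 10.16 and 11.30 in control and 12.43, 12.13 and 13.19 in anti-PD-1 arrays. Here the groups overlapped, because control replicate 2 lay above anti-PD-1 replicate 2. Mrpl33 (chr5:31596935-31664384) differed by 1.34 ± 0.56 (SE), and by 0.79 without control replicate 3. The adjusted p was 0.50 for Mrpl20 and Mrpl13 and 0.509 for Mrpl33.

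Mrpl57 and Mrpl45 encode large-subunit proteins without a bacterial counterpart. Mrpl57 (chr14:57826239-57828745) read 9.73, 9.12 and 9.36 in control and 10.33, 9.76 and 10.84 in anti-PD-1 arrays. Its groups did not overlap, though control replicate 2 and anti-PD-1 replicate 2 nearly met. The difference was 0.91 ± 0.33 (SE). Mrpl45, which sits at the tunnel exit and ties the ribosome to the inner membrane, read 11.28, 10.12 and 10.19 in control and 11.44, 11.25 and 11.68 in anti-PD-1 arrays. Control replicate 2 lay among the treated arrays, and the other controls lay below them. Mrpl45 (chr11:97315716-97329920) differed by 0.93 ± 0.35 (SE). Both genes had an adjusted p of 0.50, and the lowest adjusted p that any member reached with an array left out or another setting was 0.151, for Mrpl45 without control replicate 2.

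In the small subunit Mrps14, the counterpart of a bacterial protein of the head, had the largest difference. Mrps14 (chr1:160195215-160202170) read 9.91, 9.97 and 9.77 in control and 10.98, 10.38 and 11.22 in anti-PD-1 arrays. The controls lay within 0.20 of each other and all below the treated arrays, which spread over 0.84. The difference was 0.98 ± 0.27 (SE), a factor of 1.97, with an adjusted p of 0.50, and it stayed between 0.80 and 1.22 with any 1 array left out.

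Mrps26 and Mrps23 encode small-subunit proteins that bacteria lack. Mrps26 (chr2:130563742-130568695) read 9.27, 8.86 and 8.94 in control and 9.97, 9.32 and 10.39 in anti-PD-1 arrays, a difference of 0.87 ± 0.31 (SE). The groups did not overlap, and control replicate 2 and anti-PD-1 replicate 2 lay closest. Mrps23 (chr11:88204388-88211507), which fell outside the rule for naming genes and was chosen after its values were seen, read 10.71, 10.69 and 10.43 in control and 10.97, 11.07 and 11.50 in anti-PD-1 arrays. Its difference was 0.57 ± 0.23 (SE), without overlap. The adjusted p was 0.50 for Mrps26 and 0.504 for Mrps23.

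**Figure D2:**
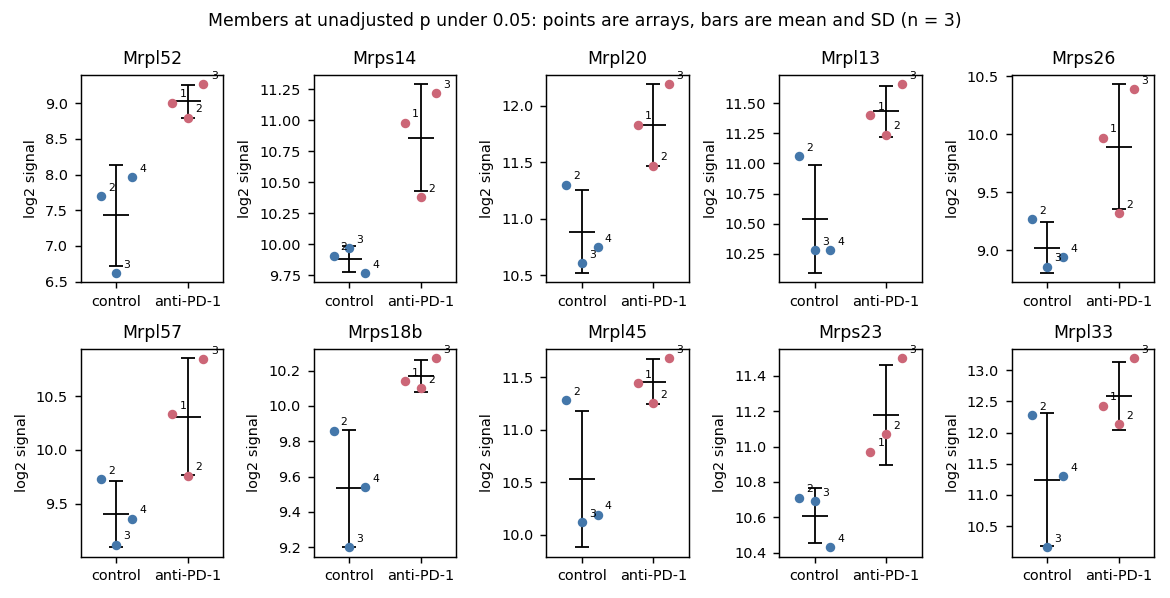
Log2 signal (vertical axis) of the 10 members at an unadjusted p under 0.05 in control (blue) and anti-PD-1 (red) arrays, with replicate numbers beside the points and bars for the mean and SD of 3 arrays. The groups do not overlap in 8 of the 10 panels, and control replicate 2 reaches the treated arrays for Mrpl45 and Mrpl33. The panels were chosen by p on these same arrays, which favours groups that do not overlap, so the 8 are no separate support.

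The 3 mammalian paralogs of bacterial protein S18 occupy different places in the ribosome and differed in size here. Mrps18b read 9.86, 9.20 and 9.54 in control and 10.14, 10.10 and 10.27 in anti-PD-1 arrays, without overlap, a difference of 0.64 ± 0.23 (SE; adjusted p 0.50). Mrps18c read 10.74, 9.68 and 9.79 in control and 10.29, 10.15 and 11.07 in anti-PD-1 arrays. Control replicate 2 was above 2 of the treated arrays, and the difference of 0.43 ± 0.38 (SE) had an adjusted p of 0.678. Mrps18a, the large-subunit paralog, read 9.43, 9.56 and 8.67 in control and 9.35, 8.94 and 9.69 in anti-PD-1 arrays, with full overlap and a difference of 0.11 ± 0.32 (SE). The sign for Mrps18a turned without control replicate 4 or anti-PD-1 replicate 3. Whether the paralogs differed from each other was not tested.

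The stalk of the large subunit, which recruits translation factors, is built on Mrpl10 and holds Mrpl12, with Mrpl11 at its base. Mrpl10 read 8.61, 8.44 and 8.72 in control and 9.02, 8.91 and 9.50 in anti-PD-1 arrays, without overlap, a difference of 0.55 ± 0.23 (SE) with an unadjusted limma p of 0.0514. Mrpl11 read 9.59, 9.53 and 8.17 in control and 9.56, 8.75 and 9.82 in anti-PD-1 arrays. Mrpl12, which is also reported to bind the mitochondrial RNA polymerase, read 9.64, 9.23 and 8.47 in control and 9.31, 8.96 and 9.61 in anti-PD-1 arrays. Both overlapped fully, with control replicate 4 the lowest array, and their differences of 0.28 and 0.18 turned to -0.18 and -0.14 without that array. Mrps12, a protein of the decoding centre, read 8.18, 7.50 and 8.27 in control and 8.41, 8.11 and 8.75 in anti-PD-1 arrays. It differed by 0.44 ± 0.29 (SE), with anti-PD-1 replicate 2 below control replicates 2 and 4.

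Other members named for roles known from other work showed small differences. Mrps30, a large-subunit protein that bacteria lack, differed by 0.17 ± 0.26 (SE), Mrpl41, also of the large subunit, by 0.19 ± 0.30 (SE), and Mrps36 by 0.21 ± 0.24 (SE). Each of these was smaller than its standard error and had overlapping groups. The brightest rows were Mrpl24 and Mrpl42, besides Mrpl33, with differences of 0.64 ± 0.30 (SE) and 0.45 ± 0.34 (SE). The dimmest rows, Mrpl36, Mrpl54 and Mrpl46, differed by 0.14 ± 0.19, 0.42 ± 0.23 and 0.07 ± 0.21 (SE). Brightness of different rows depends on their probes and does not order the genes by abundance.

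A few members hardly moved in any array. Mrps34, a small-subunit protein, read 9.26, 9.24 and 9.01 in control and 9.18, 9.19 and 9.16 in anti-PD-1 arrays, a difference of 0.01 ± 0.19 (SE). Mrps2 read 9.45, 9.45 and 9.39 in control and 9.46, 9.54 and 9.58 in anti-PD-1 arrays. Its groups did not overlap although they differed by 0.10, so an order of arrays without overlap is no measure of size. The pooled standard deviation ran from 0.05 for Mrps2 to 0.84 for Mrpl33, with a median of 0.38 over the members. After Mrpl33 the widest spreads were those of Mrpl34, a small basic large-subunit protein, and Mrpl11. Mrpl34 read 7.71, 7.34 and 6.69 in control and 7.46, 6.80 and 8.51 in anti-PD-1 arrays, and its difference of 0.34 was -0.12 without anti-PD-1 replicate 3 and 0.07 without control replicate 4.

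Of the 5 members with a lower mean in anti-PD-1 tumours, the row of Slc5a3 and Mrps6 had the largest difference. Slc5a3, a transporter of myo-inositol, overlaps the Mrps6 gene, which encodes a small-subunit protein, and the row cannot say which of them it measured. It read 9.43, 10.72 and 8.90 in control and 9.38, 9.18 and 9.09 in anti-PD-1 arrays. Control replicate 3 alone lay far above the rest, and the difference of -0.47 ± 0.46 (SE) became 0.05 without that array. Mrpl48, Mrpl17, Mrpl50 and Mrps17 differed by -0.07, -0.07, -0.04 and -0.02, each with overlapping groups. All 4 turned positive without anti-PD-1 replicate 2, to 0.09, 0.05, 0.09 and 0.14. The row of Ccdc142 and Mrpl53 read 8.57, 8.11 and 7.35 in control and 9.15, 8.04 and 8.62 in anti-PD-1 arrays, a difference of 0.59 ± 0.41 (SE) with overlap.

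Members differed in how closely they followed the score of all members. Over the 6 arrays the Pearson correlation with the score was highest for Mrps21 and Mrpl23, at 0.947 each, and Mrpl19, at 0.935. Mrps21 read 8.86, 8.89 and 8.38 in control and 9.62, 8.78 and 9.89 in anti-PD-1 arrays, which follows the score in having control replicate 4 at the bottom and anti-PD-1 replicate 3 at the top. The correlation was lowest for the Slc5a3 and Mrps6 row, at -0.07, Mrpl49, at -0.04, and Mrpl44, at 0.06. Mrpl49 read 8.96, 9.34 and 9.15 in control and 9.59, 9.42 and 9.09 in anti-PD-1 arrays, with anti-PD-1 replicate 3 near the bottom. These correlations have 6 points each and describe the arrays only.

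Ribosomal proteins of mitochondria that carry other gene names lay in the same direction. All 5 were higher, beside 51.6% of all rows. At an unadjusted p under 0.05, 0 of them were higher, beside 5.25% of all rows, and 0 had groups without overlap. The median was 0.25, or 0.10 without control replicate 4 and 0.70 without control replicate 2. Dap3, a GTP-binding protein of the small subunit first described in cell death, read 11.55, 11.06 and 10.89 in control and 11.88, 11.75 and 11.38 in anti-PD-1 arrays. Its groups overlapped and the difference was 0.50 ± 0.26 (SE) with an adjusted p of 0.543. Chchd1 differed by 0.62 ± 0.34 (SE), Aurkaip1 by 0.25 ± 0.44 (SE), Gadd45gip1 by 0.13 ± 0.21 (SE) and Ptcd3 by 0.08 ± 0.27 (SE). Aurkaip1 was -0.11 without control replicate 3 and Ptcd3 -0.18 without control replicate 4. The gene now called Mrpl58 stands on the array under its older name Ict1 and so fell outside the rule. Its protein frees stalled ribosomes by releasing the nascent chain. It read 9.67, 9.32 and 9.60 in control and 9.99, 9.87 and 10.24 in anti-PD-1 arrays, without overlap, a difference of 0.50 ± 0.21 (SE; adjusted p 0.512).

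The factors that build and serve the mitoribosome gave medians near 0, beside 0.36 for its proteins, and the difference between the lists was not tested. Beside this list and those that follow, 51.6% of all rows were higher. At an unadjusted p under 0.05, 5.25% of all rows were higher and 4.54% lower. Of 26 genes of mitoribosome assembly and rRNA modification 14 were higher, 2 at that threshold. The median was 0.03, or -0.05 to 0.18 with 1 array left out. The 2 genes at that threshold were assembly factors. Noa1, a GTPase, read 8.11, 7.37 and 7.60 in control and 8.69, 8.37 and 8.81 in anti-PD-1 arrays, without overlap, a difference of 0.93 ± 0.26 (SE; adjusted p 0.50). Ddx28, an RNA helicase of the large-subunit pathway, differed by 0.65 ± 0.27 (SE) with an adjusted p of 0.509. Gtpbp10, another GTPase of large-subunit assembly, read 14.37, 10.78 and 13.37 in control against 14.44, 14.53 and 14.45 in anti-PD-1 arrays, and its difference of 1.63 ± 0.84 (SE) was 0.60 without control replicate 3.

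Translation factors of mitochondria had 9 of 14 measured genes higher, 0 at an unadjusted p under 0.05 in either direction, and a median of 0.07, which ran from -0.18 to 0.11 with 1 array left out. The initiation factors Mtif3 and Mtif2 differed by 0.49 ± 0.39 (SE) and -0.49 ± 0.42 (SE), and the elongation factor Tufm by 0.26 ± 0.43 (SE), or -0.19 without control replicate 4. Mtfmt, which formylates the initiator tRNA, differed by -0.46 ± 0.24 (SE). Of 20 genes for charging mitochondrial tRNAs 9 were higher, and the median was -0.04. Lars2, the leucyl-tRNA synthetase, was the only one of them at an unadjusted p under 0.05, lower without overlap, with a difference of -0.53 ± 0.22 (SE) and an adjusted p of 0.509.

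Most genes of mitochondrial DNA transcription and RNA stability were higher. Of 18 genes 14 were higher, 3 of them at an unadjusted p under 0.05, and 1 was lower at that threshold. The median was 0.30, or 0.17 to 0.40 with 1 array left out. Tefm, the elongation factor of the mitochondrial polymerase, differed by 0.83 ± 0.32 (SE), the RNA helicase Supv3l1 by 0.94 ± 0.38 (SE), and Slirp, which stabilises mitochondrial messages, by 0.87 ± 0.35 (SE). Polg2, the accessory subunit of the DNA polymerase, read 8.15, 8.23 and 7.65 in control and 7.07, 7.04 and 7.23 in anti-PD-1 arrays, lower without overlap, with a difference of -0.90 ± 0.23 (SE) and an adjusted p of 0.50. The polymerase Polrmt itself differed by 0.11 ± 0.19 (SE).

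Regulators known to act on such genes had 5 of 10 higher, 0 at an unadjusted p under 0.05, and a median of -0.11, or -0.13 to 0.05 with 1 array left out. The nuclear respiratory factor Nrf1 differed by 0.18 ± 0.25 (SE), and the GABP subunits Gabpa and Gabpb1 by 0.03 ± 0.28 (SE) and 0.63 ± 0.35 (SE). Without control replicate 3 Nrf1 was -0.02 and Gabpa -0.16. Myc, which raises ribosome production, differed by 0.60 ± 0.40 (SE). Ppargc1a, a coactivator of mitochondrial biogenesis that is high in muscle and brown fat, read 6.01, 8.34 and 6.11 in control and 6.21, 6.08 and 5.38 in anti-PD-1 arrays, with control replicate 3 far above the others. Its difference of -0.93 ± 0.64 (SE) was -0.17 without that array. Of 14 genes of the mitochondrial stress response 10 were higher, 1 at an unadjusted p under 0.05 (Chac1, which degrades glutathione, 0.95 ± 0.34, SE). Next by p, Asns was higher by 0.89 ± 0.44 (SE). Fgf21 and Atf5 were lower, at -0.49 ± 0.24 (SE) and -0.88 ± 0.45 (SE). The median of the list was 0.37, or 0.19 without control replicate 4 and 0.58 without control replicate 2.

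Cytosolic ribosomal proteins gave a higher median than the mitoribosome, and respiratory subunits gave medians close to it. All 60 cytosolic ribosomal protein genes were higher, 26 of them at an unadjusted p under 0.05, and their median was 0.64. Complex I had 33 of 36 subunits higher, 2 at that threshold, with a median of 0.34. Complexes II to IV and ATP synthase had 36 of 46 higher, 1 at that threshold, with a median of 0.31. Without control replicate 4 the medians were 0.51 for the cytosolic ribosomal proteins, 0.10 for complex I and 0.09 for complexes II to IV and ATP synthase. Without anti-PD-1 replicate 3 they were 0.46, 0.09 and 0.18, and without control replicate 3 they were 0.65, 0.55 and 0.43. Beside these, the mitoribosomal median of 0.36 was 0.20 without control replicate 4 or without anti-PD-1 replicate 3. It was 0.39 without control replicate 3, below both respiratory lists. The cytosolic ribosomal proteins scored -0.10, -0.29 and -0.61 in control and 0.28, 0.01 and 0.68 in anti-PD-1 arrays, without overlap. Complex I scored -0.15, 0.25 and -0.68 in control and 0.15, -0.21 and 0.61 in anti-PD-1 arrays, with overlap. In these lists too, control replicate 4 was the lowest array and anti-PD-1 replicate 3 the highest.

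**Figure D3:**
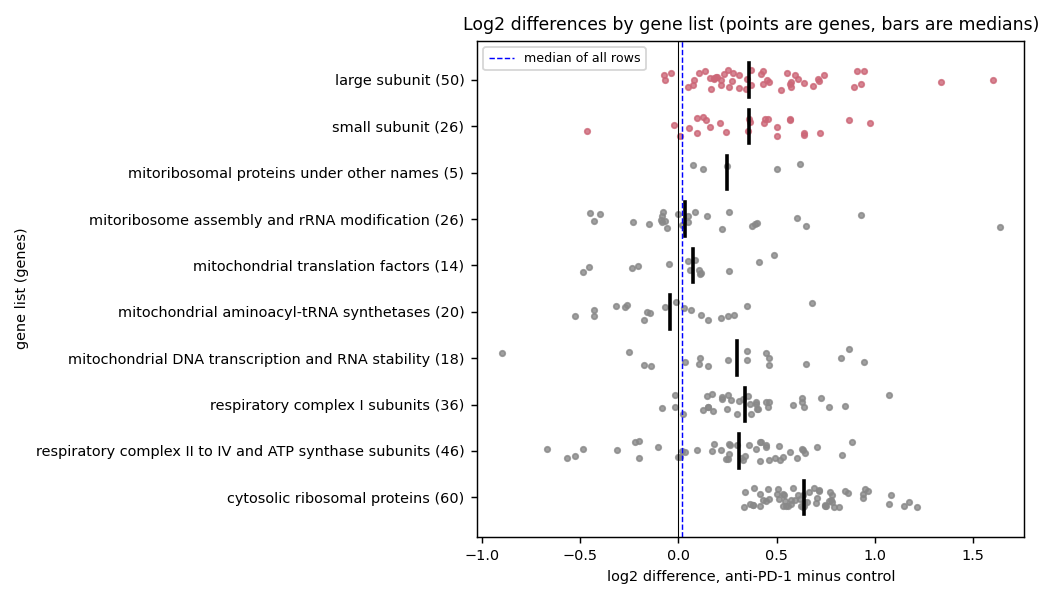
Log2 difference, anti-PD-1 minus control (horizontal axis), for the genes of each list (points, scattered vertically for sight only), with bars at the list medians and a dashed line at the median of all rows. The mitoribosomal subunits (red) have medians of 0.36, those of assembly, translation factors and tRNA charging lie between -0.04 and 0.07, and the cytosolic ribosomal proteins lie at 0.64.

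Cell type markers also differed between the arrays. Squamous epithelium markers, genes typical of the tumour line's cell type, were higher in 12 of 12 genes with a median of 2.81, and their score was -4.21 to 0.57 in control and 0.76 to 2.29 in anti-PD-1 arrays. Proliferation markers were higher in 12 of 12 genes with a median of 1.55 and scores of -2.02 to 0.44 against 0.63 to 0.86. Adipocyte markers were lower in all 10 genes, with scores of -1.86 to 5.53 in control and -2.76 to -0.94 in anti-PD-1 arrays, and milk genes in all 8, with scores of -2.24 to 5.88 against -2.22 to -1.80. Fibroblast markers, 9 of 9 lower, scored -0.09 to 1.33 against -1.22 to -0.29, and endothelial markers, 8 of 8 lower, scored 0.02 to 1.71 against -0.97 to -0.47. Skeletal muscle markers, 10 of 11 lower, scored -0.74 to 2.29 against -3.42 to 0.88, with anti-PD-1 replicate 3 the lowest array. T cell markers had 2 of 8 genes higher and scores of -0.64 to 1.02 against -0.63 to 0.22. Macrophage markers had 2 of 8 higher and scores of -0.58 to 0.74 against -0.44 to 0.34. Neutrophil markers had 6 of 8 higher and scores of -0.91 to -0.06 against -0.03 to 0.56. They went both ways: at an unadjusted p under 0.05, 3 were higher and 2 lower, among the latter Retnlg at -2.14.

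Without control replicate 3 the median of squamous markers was 1.88 in place of 2.81, that of proliferation markers 0.80 in place of 1.55, that of adipocyte markers -1.16 in place of -3.18 and that of milk genes -1.64 in place of -3.98. The endothelial median was -0.85 in place of -1.345, and the muscle median was 0.03 in place of -0.84 (0.54 without anti-PD-1 replicate 3). Fibroblast markers moved from -1.18 to -1.99 without control replicate 2 and to -0.78 without anti-PD-1 replicate 3.

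The squamous and proliferation scores ordered the arrays only in part as the mitoribosomal score did. Control replicates 3 and 4 were the lowest arrays in each of these scores. They scored -4.21 and -1.19 for squamous markers, -2.02 and -0.77 for proliferation markers, and -0.13 and -0.46 for mitoribosomal genes. The array lowest in squamous and proliferation markers was control replicate 3, whereas the lowest in mitoribosomal genes was control replicate 4. The highest in squamous and proliferation markers was anti-PD-1 replicate 2, which had the lowest mitoribosomal score of its group. The proliferation scores of the anti-PD-1 arrays lay close together, from 0.63 to 0.86. Anti-PD-1 replicate 3, with the highest mitoribosomal score, had the lowest scores for adipocyte, muscle, fibroblast and endothelial markers. Control replicate 4, with the lowest mitoribosomal score, had the highest scores for T cell and macrophage markers, 1.02 and 0.74, and a fibroblast score of 1.27 beside 1.33 in control replicate 3. The part of these cell types in the mitoribosomal differences was not tested.

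**Figure D4:**
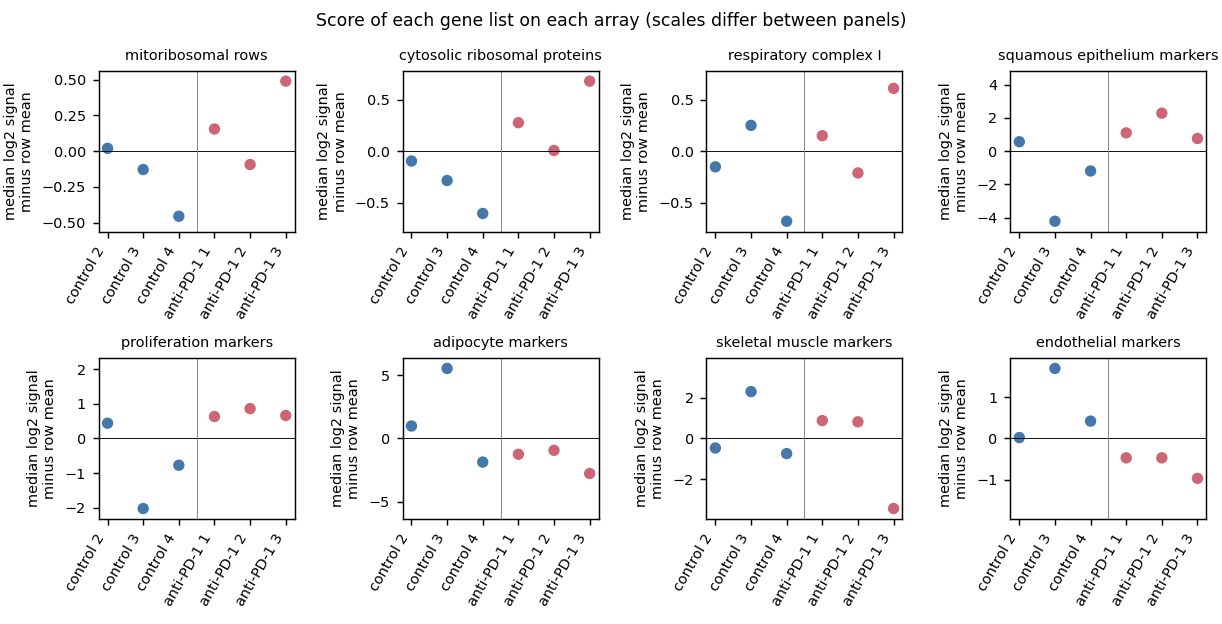
Score of each list (vertical axis, median over its genes of log2 signal minus the row mean, with a scale of its own in each panel) on each array (horizontal axis), with control in blue and anti-PD-1 in red. The mitoribosomal and cytosolic ribosomal scores are lowest in control replicate 4 and highest in anti-PD-1 replicate 3, while the squamous and proliferation scores are lowest in control replicate 3 and highest in anti-PD-1 replicate 2.

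Many mitoribosomal genes start close to another gene on the opposite strand, so that a single stretch of DNA lies between both starts. Such head-to-head pairs within 1000 bases were looked for in a RefSeq promoter table of GRCm38.p6, which held 68 of the 77 members. A head-to-head neighbour was found for 24 of the 68 (35.3%), beside 1483 of 17492 protein-coding genes (8.48%). The array measured 23 of these neighbours on rows of their own. Of the 23, 15 were higher with anti-PD-1, beside 51.6% of all rows. In either direction 5 had an unadjusted p under 0.05, beside 5.25% higher and 4.54% lower over all rows. The median difference was 0.14, with a range from -0.85 to 1.16. Mrps11 and Mrpl46 are members themselves and count among both the 23 and the 15.

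The stretches between the starts of 3 pairs are printed because these pairs cover a member with another member, a member and neighbour that are both higher, and a member and neighbour with differences of opposite sign. All are from RefSeq, GRCm38.p6, 5′ to 3′ on the strand named.
Mrps11 and Mrpl46, chr7:78783090-78783130, plus strand: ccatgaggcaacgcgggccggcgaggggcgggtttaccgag
Mrpl57 and Ska3, chr14:57826164-57826238, plus strand: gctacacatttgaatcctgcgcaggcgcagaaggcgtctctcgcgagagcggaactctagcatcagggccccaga
Mrps12 and Sars2, chr7:28741822-28741967, minus strand: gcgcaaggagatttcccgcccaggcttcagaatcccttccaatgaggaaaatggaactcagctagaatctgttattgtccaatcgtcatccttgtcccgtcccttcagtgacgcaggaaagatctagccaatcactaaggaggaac

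The first stretch, of 41 bases, lies between members of both subunits, and neither differed beyond its error: Mrps11 by 0.13 ± 0.23 (SE) and Mrpl46 by 0.07 ± 0.21 (SE). The second, of 75 bases, lies between Mrpl57 and Ska3, a gene of chromosome attachment to the spindle. Mrpl57 differed by 0.91 ± 0.33 (SE) and Ska3 by 1.16 ± 0.50 (SE), with adjusted p of 0.50 and 0.515. The third, of 146 bases, lies between Mrps12 and Sars2, the mitochondrial seryl-tRNA synthetase. Mrps12 differed by 0.44 ± 0.29 (SE), while Sars2 read 8.81, 8.96 and 8.56 in control and 8.33, 8.24 and 8.81 in anti-PD-1 arrays, a difference of -0.32 ± 0.24 (SE).

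Other pairs also ran apart or together. Psma2, a proteasome subunit, differed by 1.09 ± 0.38 (SE) beside 0.37 for Mrpl32, and the chaperonin gene Tcp1 by 0.88 ± 0.32 (SE) beside 0.20 for Mrpl18. Fau, which encodes a cytosolic ribosomal protein, differed by 0.84 ± 0.33 (SE) beside 0.22 for Mrpl49. In the opposite direction, Cyb5rl differed by -0.64 ± 0.18 (SE) beside 0.27 for Mrpl37, and Zfp189 by -0.85 ± 0.34 (SE) beside -0.04 for Mrpl50. The mitochondrial helicase gene Twnk differed by -0.25 ± 0.28 (SE) beside 0.61 for Mrpl43. None of these neighbours passed the adjusted threshold, with adjusted p of 0.50 or more.

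**Figure D5:**
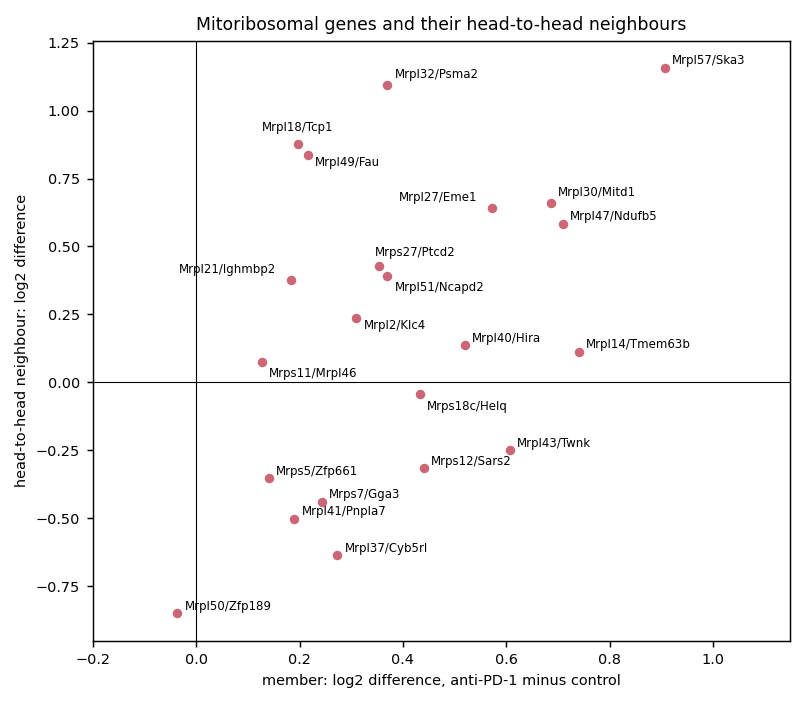
Log2 difference, anti-PD-1 minus control, of a mitoribosomal gene (horizontal axis) and of its head-to-head neighbour (vertical axis), with 1 labelled point per measured pair. Neighbours spread from -0.85 to 1.16, on both sides of 0, while the members on the horizontal axis lie between -0.04 and 0.91.

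Promoters of the members were searched for 3 motifs, on both strands of the 300 bases from 250 before to 50 after each start. The letters were GCGCATGCG for NRF1, CCGGAAGT for the ETS family, to which GABP belongs, and AAGATGGCG for YY1. The ETS letters were found in 12 of 68 members (17.6%), beside 5.69% of 17492 protein-coding genes. The NRF1 letters were found in 7 members (10.3%), beside 2.61%, and the YY1 letters in 8 members (11.8%), beside 2.14%. Any of the 3 was found in 26 members (38.2%), beside 9.84% of protein-coding genes, and no matches of different motifs overlapped. A match is a description of letters and no evidence of a bound factor.

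One promoter is printed because it belongs to a member at an unadjusted p under 0.05 and carries the ETS letters, which are in capitals. It is the stretch before the start of Mrps26 on the plus strand, chr2:130563657-130563756, from RefSeq, GRCm38.p6.
Mrps26: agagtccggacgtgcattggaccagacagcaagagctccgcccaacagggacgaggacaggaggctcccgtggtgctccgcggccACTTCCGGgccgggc

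Members with the ETS letters had a median difference of 0.48 (12 genes, 11 higher), and the 56 without them 0.28 (52 higher), beside 51.6% of all rows higher. At an unadjusted limma p under 0.05, 3 with the letters (Mrpl52, Mrpl33 and Mrps26) and 6 without them were higher, beside 5.25% of all rows. Mrpl48, which also carries the letters, differed by -0.07. With the NRF1 letters the median was 0.37 (7 genes) and without them 0.35 (61 genes), and with the YY1 letters it was 0.31 (8 genes) and without them 0.37 (60 genes). No difference between these groups was tested, and their medians were not taken with an array left out.

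The authors' deposited table, whose test no header names, gave a similar count. Of the members, 10 in the authors' deposited table had a p under 0.05, beside 9.6% of named rows in either direction, and 0 had an FDR under 0.05, with a lowest FDR of 0.509. Group averages in the authors' deposited table are not arithmetic means of the arrays, and 7 members had the higher average in control there.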

How the data were processed

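Total RNA, 250 ng per tumour, was labelled with biotin and read on Clariom S Mouse arrays, per the labels' protocols. The deposited log2 signals per transcript cluster were made by the authors with the SST-RMA gene-level method on an mm10 annotation, per the file headers, with the Transcriptome Analysis Console of unstated version, per the submitters' processing notes. SST-RMA normalizes between arrays, so a shift shared by most genes would not be seen. The authors' deposited table also holds a score per row (a signed fold change and a spread per group) and, per the file headers, p-values and FDR values of an unnamed test. The log2 signals of the series' own value table were the same, with 0 values differing.

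Of 22206 rows, 3 without a gene name were left out, and 22203 were tested two-sided by moderated linear models (limma 3.58.1, R 4.3.3). P-values were adjusted by Benjamini-Hochberg over the 22203 rows, at a threshold of 0.05. The fit was run on simulated data with known differences. Errors are SD between the 3 arrays of a group or SE of the fit. An exact permutation test of 3 arrays against 3 cannot reach the threshold, so none was run. Samples were grouped by their treatment label. The labels give both groups a number 2 and a number 3. They do not say that a shared number marks a pair, so the numbers were not taken as pairs. The deviations of the same-numbered arrays from their group means correlated at -0.197 and -0.195. These values cannot decide the question, because arrays of unlike number were not compared.

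Members and gene lists were chosen with earlier results of these data known. Named members were the 8 of smallest p in each direction at an unadjusted p under 0.05, the 3 brightest and dimmest, those of widest and narrowest spread, the Mrps18 paralogs, members of known place (stalk, decoding centre, tunnel exit), rows with several names and the 3 that follow the score most and least. From each other list up to 4 genes of smallest p and its best known members could be named. Of the other member genes named, Mrps23, those lower with anti-PD-1 and those beside a named neighbour were chosen after their values were seen. Of the list genes, Mtrfr and Trac were not found on the array. Promoters and start sites came from a RefSeq table, GRCm38.p6, used without Mrpl13, Mrpl15, Mrpl19, Mrpl38, Mrpl4, Mrpl54, Mrps28, Mrps34 and Mrps35. The motif letters are cores set after longer forms of the NRF1 and YY1 letters had been counted, which matched fewer promoters.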

Additional observations from a re-analysis of the deposited data

How the results depend on the processing

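The main limits are the number of arrays, 3 per group, the distance of control replicate 3 from the others, and the weight of control replicate 4 and anti-PD-1 replicate 3 in the mitoribosomal score. In all 14 alternatives 0 members passed the adjusted threshold (limma), against 10 at an unadjusted p under 0.05 as reported, and the member median kept its direction, at 0.20 to 0.56 with 1 array left out and 0.22 to 0.43 otherwise. The count of all rows past the adjusted threshold, 1 as reported, was 0 to 13 with 1 array left out, 13 without control replicate 3, and 0 with quantile normalization, median centring and the replicate block. Members higher at an unadjusted p under 0.05 numbered 2 to 17 with 1 array left out, 16 with array weights and 1 with the replicate block. At that threshold, higher and lower rows in the whole table, 1165 and 1007 as reported, numbered 429 and 308 with the replicate block. They ran from 618 to 1843 and from 488 to 1489 with 1 array left out. The same-numbered arrays share only a number, and control replicate 4 and anti-PD-1 replicate 1 have no array of the same number. Differences with the replicate block therefore rest on the arrays numbered 2 and 3 alone. Its counts and reversals cannot be told apart from the loss of those other arrays. With the replicate block Mrpl53 turned to -0.01, Mrpl11 to -0.275, Mrpl12 to -0.15, Mrps18a to -0.18 and Mrps34 to -0.075, and quantile normalization turned Mrps34 to -0.0475. With 1 array left out Mrps6 ran from -0.86 to 0.0517, Mrpl34 from -0.12 to 0.74, Mrpl41 from -0.03 to 0.44, Mrpl11 from -0.18 to 0.59, Mrpl12 from -0.14 to 0.44, Mrpl46 from -0.0317 to 0.20, Mrps18a from -0.17 to 0.30 and Mrps34 from -0.0733 to 0.0517. The cause was not tested. Of the 33 members that the naming rule took, the other 24 did not reverse under any alternative. Of other members in the text, Mrpl37 turned to -0.145 without anti-PD-1 replicate 3. Mrpl48, Mrpl17, Mrpl50 and Mrps17, lower as reported, turned positive without anti-PD-1 replicate 2 and without other arrays too. Mrpl48 was 0.215 without control replicate 3, and Mrpl17 was 0.10 without control replicate 2. Without control replicates 2 and 3, Mrpl50 was 0.07 and 0.13, and Mrps17 was 0.08 and 0.08. Without anti-PD-1 replicate 1 Mrps17 was 0.20.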
